A study of Homo sapiens with 9 samples.

Results

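The nuclear genes that encode subunits of the oxidative phosphorylation (OXPHOS) complexes were examined in SNU-398, a mesenchymal-like hepatocellular carcinoma (HCC) cell line that overexpressed EMX1. The members were chosen by symbol: names that begin with NDUFA, NDUFB, NDUFC, NDUFS or NDUFV and end in a number, SDHA to SDHD, and names that begin with UQCR, COX4 to COX8, ATP5F1, ATP5M or ATP5P. Of the 181 names that matched, 96 were pseudogenes or a read-through gene and were dropped, which left 85 of the 60642 gene names listed. Complex I had 37 members, complex II had 4, complex III had 9, complex IV had 17 and complex V had 18. The rule reads symbols alone.

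RNA-seq libraries, 3 per group, were made from overexpression control cells (labelled wild type and called the vector control here), from cells with EMX1-FL, the full-length homeobox transcription factor, and from cells with EMX1-X1, an alternatively spliced isoform. All groups were under puromycin selection, and EMX1-FL and EMX1-X1 were brought in by lentivirus to give stable lines. Whether a line came from a single clone is not given in the sources used here. The labels do not say whether libraries of a group came from separate infections or cultures, so the p-values measure only the spread between these libraries, which may be technical. The total counts of read pairs on genes were between 21562703 and 25197970 per library. EMX1 itself was between 9.34 and 12.9 CPM (read pairs scaled to a common library size) in the vector control, between 135 and 251 CPM in EMX1-FL and between 145 and 294 CPM in EMX1-X1, and counts per gene name do not separate the isoforms. Hepatocyte markers were nearly absent (ALB at most 2.77 TPM, a share of the library per transcript length, with TTR and FGB at 0), and of the hepatoblast-like markers AFP was at 0 and GPC3 between 14.5 and 26.7 TPM. Mesenchymal markers were mixed, with VIM between 703 and 1116 TPM, FN1 between 33.1 and 62.5 TPM and CDH2 between 9.18 and 18.1 TPM. ZEB1 was between 0.20 and 1.28 TPM and SPARC between 0.38 and 1.62 TPM. Of the epithelial markers, EPCAM was between 3.60 and 8.57 TPM, CDH1 between 0.90 and 2.39 TPM and KRT19 at or near 0. Markers of blood (PTPRC) and of muscle (MYH7, ACTC1) were at or near 0.

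Oxidative phosphorylation makes ATP at the inner mitochondrial membrane. Complex I takes electrons from NADH and complex II from succinate, both pass them through ubiquinone to complex III, and cytochrome c carries them to complex IV, which reduces oxygen. Complexes I, III and IV pump protons, and complex V, the ATP synthase, uses the gradient. All subunits of complex II and most subunits of the others are encoded in the nucleus, while a small core of complexes I, III, IV and V is encoded by mitochondrial DNA.

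The member levels were first compared by TPM, a measure per length, in the vector control. Of the 85 members, 79 passed the filter on low counts and were tested. Summed over members, complex V had 4320 ± 365 TPM (SD, n = 3), complex I 3161 ± 203 TPM, complex IV 2691 ± 252 TPM, complex III 1255 ± 74.5 TPM and complex II 373 ± 15.2 TPM. The levels of single tested members ranged from 2.23 to 2078 TPM with a median of 97.1 TPM. A single gene, ATP5F1B, which encodes the catalytic beta subunit of the ATP synthase, was the highest member at 2078 ± 207 TPM.

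In complex I, NDUFS5 (446 ± 67.0 TPM) and NDUFA6 (229 ± 3.45 TPM), both accessory subunits, were the highest. The lowest were NDUFA7 (2.23 ± 0.81 TPM) and NDUFV2 (6.10 ± 2.18 TPM), an iron-sulfur subunit of the NADH-oxidizing arm. Between them were, from high to low, NDUFB10, NDUFA4, NDUFB7, NDUFB11, NDUFB6, NDUFB9, NDUFA8, NDUFS4, NDUFV1, NDUFA1, NDUFS1, NDUFA10, NDUFB4, NDUFA12, NDUFS8, NDUFB5, NDUFC1, NDUFB1, NDUFS6, NDUFB3, NDUFA2, NDUFB2, NDUFS3, NDUFA5, NDUFB8, NDUFA3, NDUFS7, NDUFC2, NDUFV3, NDUFA13, NDUFA11 and NDUFA9. NDUFA4, which keeps a complex I name, is now seen as a subunit of complex IV. Of the core subunits that carry redox centres, NDUFV1, which binds NADH, was at 97.7 ± 4.54 TPM and NDUFS1 at 90.5 ± 9.08 TPM, which did not differ beyond their spread.

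In complex II, SDHB (180 ± 7.51 TPM, the iron-sulfur subunit) and SDHD (148 ± 20.7 TPM, a membrane anchor) stood above the other anchor SDHC (42.1 ± 2.15 TPM). SDHA, the flavoprotein that oxidizes succinate, was at 3.82 ± 0.72 TPM. SDHA has near-identical copies in the genome and read pairs that mapped to several places were not counted, so its level and that of other members with such copies are uncertain. In complex III, UQCRH (327 ± 25.3 TPM, the hinge protein) and UQCRC1 (237 ± 33.7 TPM, a core protein) were the highest, followed by UQCRC2, UQCR10, UQCRFS1 (the Rieske iron-sulfur protein), UQCRQ and UQCR11. UQCRB (39.5 ± 8.64 TPM) and UQCRHL (2.66 ± 0.55 TPM) were the lowest.

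In complex IV, COX5A (560 ± 52.9 TPM) and COX8A (505 ± 57.4 TPM) were the highest tested members and did not differ beyond their spread, followed by COX4I1, COX6C, COX6B1, COX5B, COX6A1, COX7A2, COX7A2L and COX7C. COX7B (76.5 ± 7.19 TPM) and COX6B2 (4.67 ± 1.23 TPM) were the lowest. In complex V, ATP5MD (341 ± 25.9 TPM, a small membrane subunit) came after ATP5F1B, then ATP5MC2, ATP5PB, ATP5F1D, ATP5F1A, ATP5F1C, ATP5PD, ATP5MC1, ATP5MF, ATP5MPL, ATP5PF, ATP5MC3, ATP5F1E and ATP5PO. ATP5MG (51.4 ± 4.70 TPM) and ATP5ME (37.8 ± 16.4 TPM), both of the membrane part, were the lowest. Some of the lowest members share exon bases with other genes, where read pairs were not counted: 61.3% for ATP5ME, 32.5% for NDUFA7, 29.1% for COX6B2 and 28.4% for NDUFV2. ATP5F1B was above the next member by far more than the spread.

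Several subunits have alternative forms, and in these cells a single form took nearly all of the summed TPM for most of them. COX4I1 held 100% over COX4I2, which was at 0 counts in every library, and COX7B held between 99.4% and 100% over COX7B2, a testis form with at most 3 counts. COX6A1 held between 98.7% and 100% over COX6A2, the muscle form with at most 8 counts. COX8A held between 99.4% and 99.9% over COX8C (2 to 13 counts). COX6B1 held between 95.3% and 98.6%, the rest being COX6B2. For subunit 7A no form held nearly all: COX7A2 held between 45.6% and 67.5% and COX7A2L, a factor of supercomplex assembly, between 32.0% and 54.0%, while COX7A1, the muscle form, had at most 13 counts. UQCRH held between 98.8% and 99.6% over its retrocopy UQCRHL. Of the ATP5MC genes, which encode the same mature c subunit, ATP5MC2 held between 54.1% and 60.2%, ATP5MC1 between 23.6% and 27.5% and ATP5MC3 between 15.6% and 20.8%. COX4I2, COX6A2, COX7A1, COX7B2, COX8C and ATP5MGL (at most 3 counts) were the 6 members that were not tested.

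The promoters of the members were read from RefSeq (GRCh38.p14, from 250 bases before to 50 after each start), where 68 members had 81 promoters. Those with no entry included UQCRHL, NDUFS5, SDHC, ATP5MC3, NDUFB5, NDUFA4, ATP5MF, UQCRB, COX6C, NDUFB9, NDUFC2, ATP5F1B, COX4I2, ATP5F1D, COX7A1 and ATP5MGL. Motifs of 4 regulators known for nuclear respiratory genes were searched on both strands. The NRF1 letters GCGCANGCG were in 28.4% of member promoters and in 7.52% of all 35116 promoters. The YY1 letters AANATGGCG were in 23.5% against 3.19%, the GABPA letters CCGGAAGT, which other ETS factors share, in 14.8% against 4.14%, and the letters TNAAGGTCA of the estrogen-related receptors (ERR) in 2.47% against 0.95%. At least 1 of the 4 was in 51.9% of member promoters and in 14.2% of all. None of these letter strings holds another, but the NRF1 letters can match both strands of the same bases. The matches differed in place: 15 of 19 YY1 matches lay after the start (median base 16), whereas 37 of 38 NRF1 match positions lay before it (median base -65.5). The YY1 letters hold ATG, the letters of a start codon, and 10 of the 19 matches read AAGATGGCG. The 19 matches were in 17 members: for NDUFS1 and ATP5PF the same bases lay in overlapping promoters of the gene and were counted in each. Whether YY1 matches lie where translation starts was not tested. In complex I, 11 of 31 members with a promoter held a YY1 match and 9 an NRF1 match, and in complex IV 1 of 14 and 2 of 14 did. The promoters below, from 150 bases before to 50 after the start, show an example of each complex with the matched letters in capitals, chosen after the matches were seen. They lie at chr5:1801257-1801456 (NDUFS6, plus strand, NRF1 and YY1), chr11:112086723-112086922 (SDHD, plus, NRF1, GABPA and ERR), chr3:48609597-48609796 (UQCRC1, minus, NRF1 and YY1), chr2:97645912-97646111 (COX5B, plus, GABPA at a pair of places) and chr10:7788027-7788226 (ATP5F1C, plus, NRF1). A match is a run of letters and not evidence of binding.
NDUFS6: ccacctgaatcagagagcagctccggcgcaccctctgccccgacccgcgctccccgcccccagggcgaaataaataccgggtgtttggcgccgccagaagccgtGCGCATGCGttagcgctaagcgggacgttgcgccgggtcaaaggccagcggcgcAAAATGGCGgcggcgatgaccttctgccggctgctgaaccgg
SDHD: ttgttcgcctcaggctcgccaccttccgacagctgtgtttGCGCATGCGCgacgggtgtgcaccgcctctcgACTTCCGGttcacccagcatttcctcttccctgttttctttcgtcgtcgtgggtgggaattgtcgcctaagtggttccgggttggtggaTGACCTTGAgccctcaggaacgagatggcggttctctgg
UQCRC1: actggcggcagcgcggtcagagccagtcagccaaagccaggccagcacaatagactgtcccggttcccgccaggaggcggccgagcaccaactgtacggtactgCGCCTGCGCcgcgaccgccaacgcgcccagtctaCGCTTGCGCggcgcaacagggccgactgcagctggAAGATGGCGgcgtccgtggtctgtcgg
COX5B: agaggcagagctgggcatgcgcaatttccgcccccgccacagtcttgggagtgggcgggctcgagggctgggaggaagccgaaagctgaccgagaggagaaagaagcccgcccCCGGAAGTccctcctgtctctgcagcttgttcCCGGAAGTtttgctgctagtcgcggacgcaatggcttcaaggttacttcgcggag
ATP5F1C: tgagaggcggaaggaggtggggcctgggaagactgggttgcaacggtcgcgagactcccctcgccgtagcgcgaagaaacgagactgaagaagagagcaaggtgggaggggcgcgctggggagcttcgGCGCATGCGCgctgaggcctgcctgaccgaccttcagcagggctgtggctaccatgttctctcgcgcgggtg

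EMX1-FL was first compared with the vector control, which asks whether the full-length factor changed the level of respiratory chain genes. Whether the subunits of a complex moved as a body was not tested, and medians are given here. The median log2 fold change of the tested members was 0.19 for complex I, -0.10 for complex II, -0.07 for complex III, 0.09 for complex IV and 0.03 for complex V. Over all 79 members it was 0.07, and over all 18574 genes tested it was 0.04. Without EMX1-FL replicate 1 the median was -0.15 for complex I and -0.14 over all members, so the sign of both rested on that library. In bulk libraries, fewer cells of a type and less RNA per cell cannot be told apart.

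ATP5F1E and NDUFB3 were the only members with an unadjusted p under 0.05 in edgeR's quasi-likelihood test, both higher in EMX1-FL. That is 2.53% of the members, where 3.97% of all genes tested were called higher and 1.83% lower, and no member was lower. No member was past the threshold for differentially expressed genes (DEGs: unadjusted p under 0.05 with a log2 fold change of 1 or more in either direction), which 2.42% of all genes passed. With Benjamini-Hochberg adjustment over all genes, 0 members passed in edgeR, DESeq2 and limma alike, against 0.07% of all genes in edgeR. The 3 EMX1-FL libraries lay above all 3 vector control libraries for 5 members (NDUFB3, NDUFC2, NDUFA12, NDUFA13 and ATP5F1E), where 5.36% of all genes did, and below them for UQCRC2 alone, where 5.14% of all genes did.

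ATP5F1E (chr20:59025475-59032345 of GRCh38, minus strand) encodes the epsilon subunit of the central stalk of the ATP synthase. Its level was 65.8, 81.7 and 92.8 CPM in the vector control and 187, 116 and 111 CPM in EMX1-FL. Every EMX1-FL library was above every vector control library, and EMX1-FL replicate 1 was far above the other two. The log2 fold change was 0.78 ± 0.27 (SE; adjusted p = 0.579, edgeR), and the exact permutation p was 0.1 (two-sided), the smallest that 3 libraries against 3 can give. Without EMX1-FL replicate 1 it was 0.50, with an unadjusted p still under 0.05.

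NDUFB3 (chr2:201071433-201085750, plus strand) encodes an accessory subunit in the membrane arm of complex I. Its level was 7.67, 12.2 and 10.8 CPM in the vector control and 26.5, 13.4 and 12.9 CPM in EMX1-FL. The groups did not overlap, but only replicate 1 stood well above the vector control range. The log2 fold change was 0.78 ± 0.29 (SE; adjusted p = 0.683, edgeR), and it was 0.36, no longer past an unadjusted p of 0.05, without EMX1-FL replicate 1. Of the exon bases, 25.9% for NDUFB3 (shared with FAM126B) and 23.2% for ATP5F1E (shared with TUBB1) overlap other genes, and read pairs over more than 1 gene were not counted.

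The next highest by p was NDUFC2 (0.55 ± 0.25, SE; adjusted p = 0.864, edgeR). On the lower side the smallest p-values were those of COX5A (-0.30 ± 0.19, SE), ATP5F1B (-0.19 ± 0.15) and NDUFA10 (-0.18 ± 0.15), each with an adjusted p of 0.997 in edgeR. The 95% interval of the log2 fold change ran from -0.51 to 0.14 for ATP5F1B, the highest member. Central subunits had small estimates in this comparison: NDUFS1 -0.04, NDUFV1 0.19, SDHA -0.25, SDHB -0.07, SDHC -0.12, SDHD 0.04, UQCRC1 -0.09, UQCRC2 -0.15, UQCRFS1 -0.07, COX4I1 -0.06, ATP5F1A -0.16 and ATP5F1C 0.07 on the log2 scale. COX5B, a zinc-binding subunit of complex IV, had 0.60 ± 0.46 (SE; adjusted p = 0.997, edgeR), and its EMX1-FL libraries were at 239, 56.9 and 64.2 CPM.

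Next, EMX1-X1 was compared with the vector control. No member had an unadjusted p under 0.05 in edgeR, while 5.95% of all genes were called higher and 2.16% lower. Likewise 0 members were past the DEG threshold (2.5% of all genes) and 0 had an adjusted p under 0.05 (0.00538% of all genes), and DESeq2 and limma gave 0 at both an unadjusted and an adjusted p under 0.05. The median log2 fold change was 0.04 for complex I, -0.03 for complex II, 0.06 for complex III, 0.06 for complex IV and -0.13 for complex V. In complex V, 13 of 17 tested members had estimates below 0, where 9085 of all 18574 genes did, and the range was -0.38 to 0.40.

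The smallest p was that of NDUFC2 (-0.53 ± 0.26, SE; adjusted p = 0.620, edgeR). ATP5PB (-0.26 ± 0.15; adjusted p = 0.656, edgeR), a subunit of the peripheral stalk, and ATP5F1C (-0.27 ± 0.17; adjusted p = 0.673), the gamma subunit that turns in the central stalk, came next on the lower side. On the higher side were NDUFV1 (0.47 ± 0.29; adjusted p = 0.667, edgeR), COX5B (0.66 ± 0.46; adjusted p = 0.699) and NDUFB9 (0.31 ± 0.22; adjusted p = 0.709). For NDUFV1 the EMX1-X1 libraries were at 134, 229 and 226 CPM, and the vector control libraries at 130, 135 and 160 CPM. Replicate 1 of EMX1-X1 lay within the vector control range and the other two above it. NDUFC1 and NDUFS6 had all 3 EMX1-X1 libraries above the vector control, where 8.03% of all genes did, and NDUFA10 and NDUFA9 had all 3 below, where 6.67% did.

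Finally, EMX1-FL was compared with EMX1-X1, which asks whether the isoforms differ. This comparison shares its libraries with the others. The median log2 fold change was 0.08 for complex I, -0.07 for complex II, 0.00 for complex III, -0.08 for complex IV and 0.13 for complex V. In edgeR 6 members (7.59%) were higher in EMX1-FL at an unadjusted p under 0.05, against 2.98% of all genes, and no member was lower, against 4.66% of all genes. DESeq2 called the same 6 higher and COX6A1 and NDUFS7 lower, where it called 3.79% of all genes higher and 5.32% lower. The 6 were NDUFC2 and NDUFB3 of complex I, UQCRQ of complex III, COX7C of complex IV, and ATP5F1E and ATP5MD of complex V. A single member, NDUFC2, was past the DEG threshold, which 1.42% of all genes passed. Of 83 cytosolic ribosomal protein genes tested, 12 were higher and 0 lower at an unadjusted p under 0.05 in edgeR. Of these genes 5 were past the DEG threshold, so calls toward higher in EMX1-FL were not particular to the members. By adjusted p, 0 members passed in edgeR, as did 0% of all genes, and 0 members passed in DESeq2 and limma. NDUFB3 and NDUFC2 had all EMX1-FL libraries above all EMX1-X1 libraries, where 3.89% of all genes did, and ATP5F1B had all below, where 4.49% did.

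NDUFC2 (chr11:78068297-78079862, minus strand), an accessory subunit of the membrane arm of complex I, had the largest difference. Its level was 13.7, 15.3 and 12.8 CPM in EMX1-FL, 8.86, 5.07 and 5.82 CPM in EMX1-X1, and 7.41, 8.99 and 12.2 CPM in the vector control. The EMX1-FL libraries were close to each other and above every other library, and replicate 1 of EMX1-X1 was within the vector control range. The log2 fold change was 1.08 ± 0.26 (SE; adjusted p = 0.611, edgeR), with a 95% interval from 0.52 to 1.65. The exact permutation p was 0.1. It stayed under an unadjusted p of 0.05 in all 9 fits that left out a library (0.92 to 1.36) and in all 14 other settings (1.04 to 1.11). Of its exon bases, 21% are shared with NDUFC2-KCTD14 and THRSP.

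COX7C (chr5:86617928-86620962, plus strand), a small subunit of complex IV, was at 157, 100 and 84.2 CPM in EMX1-FL and at 88.2, 56.4 and 56.99 CPM in EMX1-X1. The groups overlapped by EMX1-X1 replicate 1. The log2 fold change was 0.76 ± 0.28 (SE; adjusted p = 0.611, edgeR). Without EMX1-FL replicate 1 it was 0.47 and no longer past an unadjusted p of 0.05. UQCRQ (chr5:132866630-132868847, plus strand), a small subunit of complex III, was at 128, 70.1 and 71.2 CPM in EMX1-FL and at 73.2, 48.3 and 51.7 CPM in EMX1-X1. Here too EMX1-FL replicate 1 stood apart, and the log2 fold change of 0.63 ± 0.28 (SE; adjusted p = 0.611, edgeR) became 0.31 without it and lost its call.

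ATP5MD (chr10:103389041-103396492, minus strand) was at 122, 123 and 97.0 CPM in EMX1-FL and at 101, 71.4 and 74.4 CPM in EMX1-X1. Its log2 fold change was 0.47 ± 0.19 (SE; adjusted p = 0.611, edgeR) and 0.44, still under an unadjusted p of 0.05, without EMX1-FL replicate 1. For ATP5F1E it was 0.71 ± 0.26 (SE; adjusted p = 0.611, edgeR), and the EMX1-X1 libraries were at 115, 67.6 and 69.7 CPM. For NDUFB3 it was 0.77 ± 0.29 (SE; adjusted p = 0.611, edgeR), and the EMX1-X1 libraries were at 11.03, 10.1 and 9.85 CPM. Without EMX1-FL replicate 1 these were 0.44 for ATP5F1E and 0.37 for NDUFB3, neither past an unadjusted p of 0.05. The calls of these members held in 5 (UQCRQ), 6 (COX7C, ATP5MD and ATP5F1E) or 7 (NDUFB3) of the 9 fits that left out a library. An offset for GC content ended the calls of NDUFB3, COX7C, ATP5MD and ATP5F1E, and the fit of the 6 libraries compared ended that of UQCRQ. On the lower side, NDUFS7 (-0.74 ± 0.34, SE), COX5A (-0.38 ± 0.19) and COX6A1 (-0.92 ± 0.48) did not pass the threshold. NDUFS7, a core subunit near the ubiquinone site, shares 51.4% of its exon bases with other genes.

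**Figure D1:**
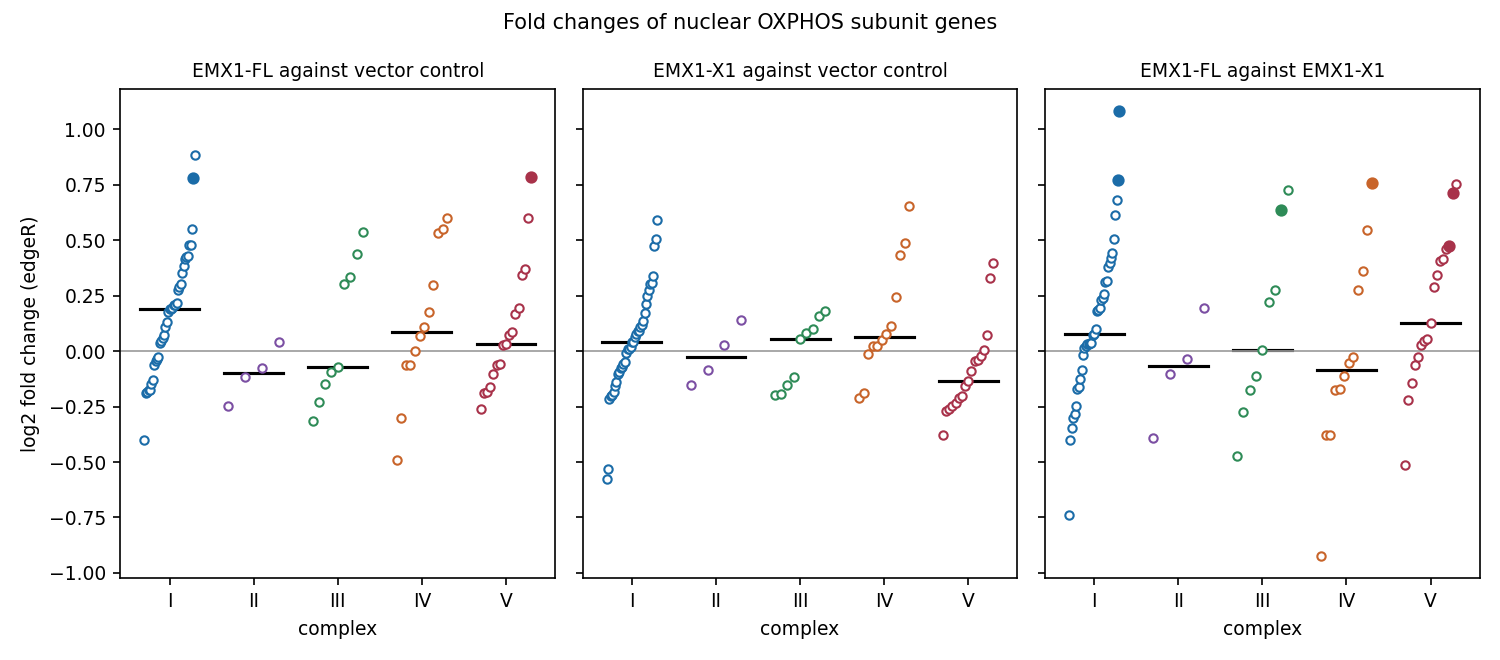
Log2 fold change (edgeR) of each tested subunit gene by complex in the 3 comparisons. Filled points have an unadjusted p under 0.05 (2, 0 and 6 members), open points do not, and black lines are the medians, which lie between -0.13 and 0.19.

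**Figure D2:**
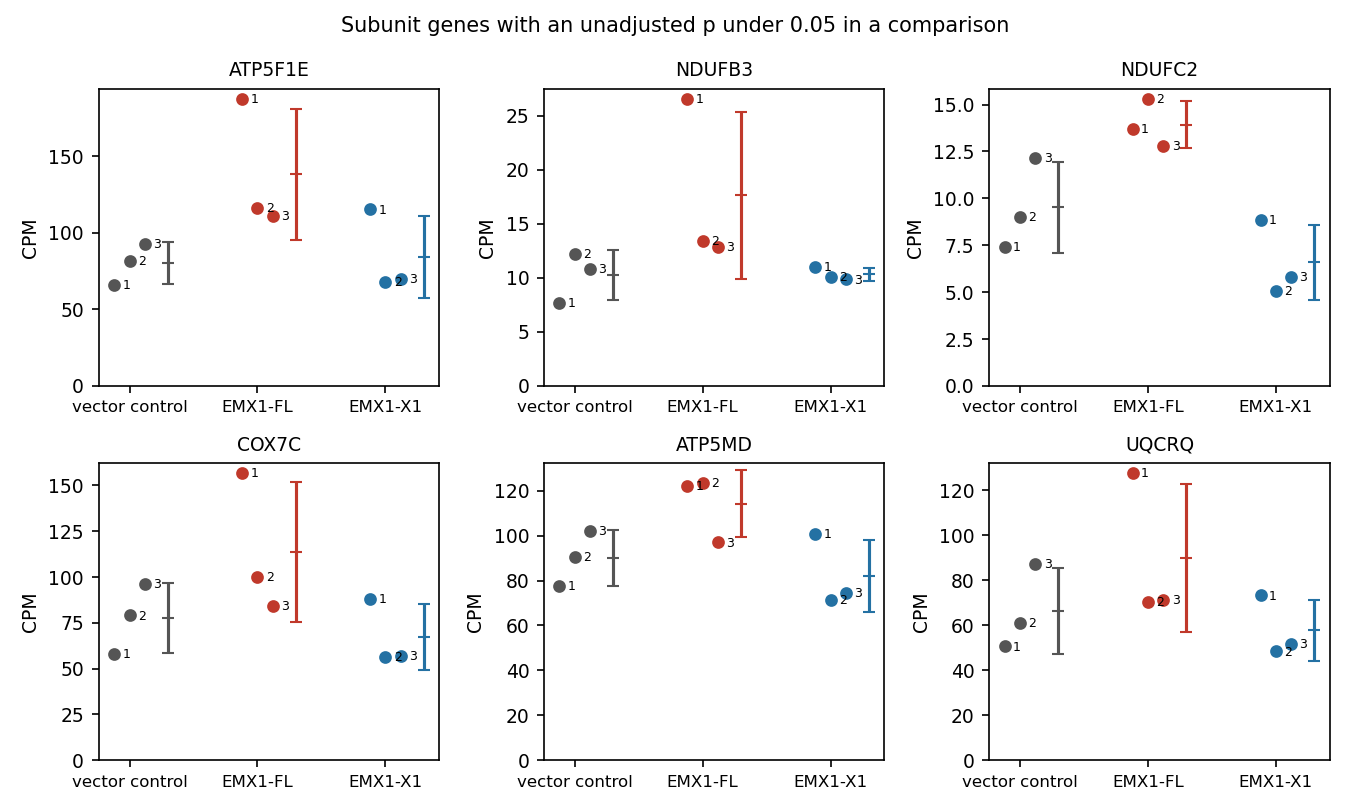
CPM of the 6 members with an unadjusted p under 0.05 in a comparison, by library (numbers are replicates), with the mean and SD of each group beside the points. EMX1-FL replicate 1 is the highest library for all but NDUFC2 and ATP5MD.

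The larger differences were between libraries of the same group. For each gene the deviation of a library from the mean over 9 libraries was taken on the log2 CPM scale, and the median over the members of a complex is given here. In EMX1-FL replicate 1 it was 0.54 for complex I, 0.06 for complex II, 0.38 for complex III, 0.63 for complex IV and 0.38 for complex V. In replicates 2 and 3 of the same group all of these medians were below 0, as low as -0.37 for complex IV in replicate 2. The SD over the EMX1-FL libraries was 0.54 for complex IV and 0.40 for complex I, above every difference between group means. Vector control replicate 3 was also high, between 0.18 for complex I and 0.29 for complex III. Complex II had the smallest range over the 9 libraries at 0.34, and complex IV the largest at 1.00, where the median of all genes tested had 0.05.

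**Figure D3:**
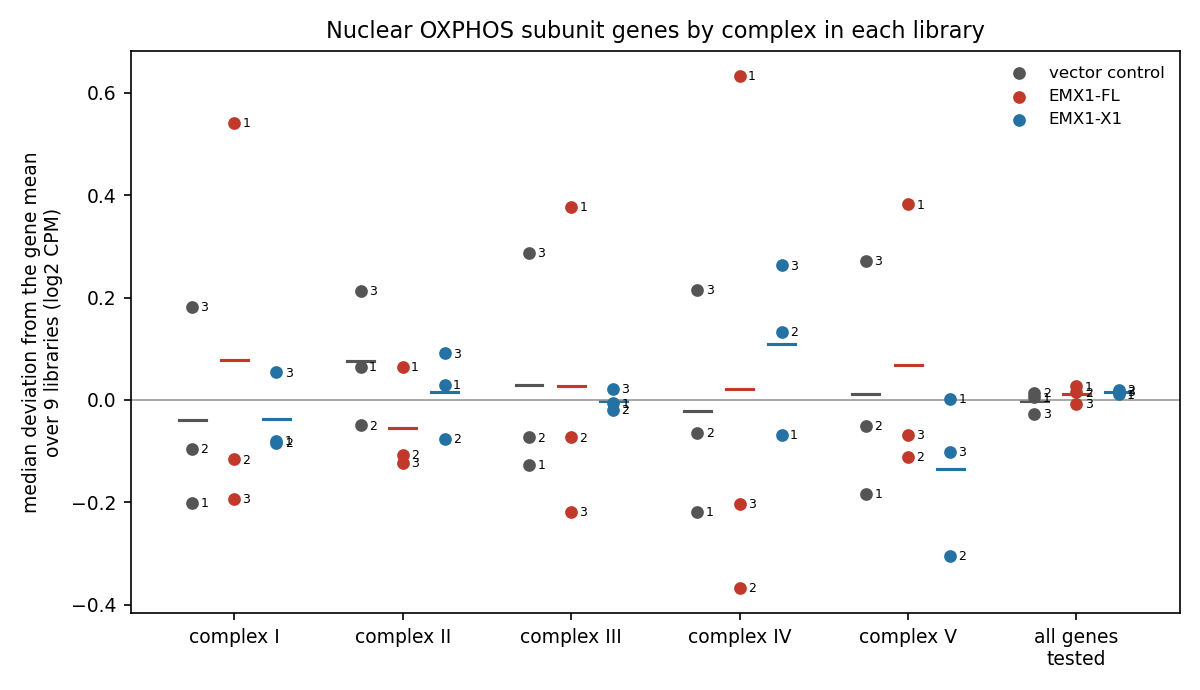
Median deviation from the gene mean over 9 libraries (log2 CPM) of the members of each complex and of all genes tested, by library. Points carry the replicate number, bars are group means, and EMX1-FL replicate 1 is at 0.54 for complex I and 0.63 for complex IV.

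The summed TPM also set EMX1-FL replicate 1 apart. Complex I was at 5187 TPM in EMX1-FL replicate 1 against 3048 and 2960 TPM in replicates 2 and 3, and complex IV was at 4591 TPM against 2259 and 2288 TPM. For complex II the sum was 357 against 400 and 413 TPM, with SDHD at 105 against 191 and 191 TPM, while 3 of its 4 members were higher in replicate 1 by log2 CPM, SDHA by 1.10 and SDHB by 0.31. In EMX1-X1, complex IV was at 2775, 3507 and 3775 TPM, and in the vector control at 2535, 2556 and 2982 TPM. In EMX1-FL replicate 1 mitochondrially encoded transcripts went the other way, with 2.94% of the counts against 5.41% and 4.598% in replicates 2 and 3. They took 4.67%, 3.38% and 3.62% in EMX1-X1 and 5.50%, 5.97% and 6.71% in the vector control. Vector control replicate 3 was the highest of its group both in this share and in the summed TPM of all members (12811 against 11214 and 11374 TPM). Cytosolic ribosomal protein genes were at 84440 TPM in EMX1-FL replicate 1 against 56812 and 57009 TPM. TPM are shares of a total that includes these transcripts. The part of these shifts in the values of the nuclear subunits was not tested.

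By gene, 64 of the 79 members (81.0%) were higher in EMX1-FL replicate 1 than in the mean of replicates 2 and 3, where 51.2% of all genes were, and all 12 tested complex IV members were. The difference was at least 1 on the log2 CPM scale for 24 members, where 11.5% of all genes were that far above, and none was that far below, where 7.66% of all genes were. It was 2.13 for NDUFA1, 2.04 for NDUFS6, 1.99 for NDUFB7 and COX5B, 1.90 for COX6A1 and 1.86 for ATP5MF. NDUFS6, a zinc-binding accessory subunit, was at 70.7 CPM in replicate 1 against 15.1 and 19.4 CPM. A few members went the other way: ATP5PO, a subunit of the peripheral stalk, had -0.85, NDUFA5 and NDUFV2 had -0.84, and SDHD had -0.82. The members with the smallest SD over the 9 libraries were SDHC and UQCRC2 (0.10), NDUFA4 (0.11), NDUFA9 (0.12) and SDHB (0.13), and those with the largest were COX6A1 (0.83) and ATP5ME (0.73).

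These differences went with base composition and length. Across the 79 members the difference of EMX1-FL replicate 1 had r = 0.46 and rho = 0.49 with GC content and r = -0.48 and rho = -0.45 with log2 length. The points are genes of the same libraries and no test was made. The 40 members at or above the median GC content of 49.2% had a median difference of 0.87, and the 39 below it had 0.23. The members as a whole were close to all genes in GC content (49.2% against 49.4%) and shorter (median 2475 against 4276.5 bases). The part of GC content and length in the differences was not tested.

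**Figure D4:**
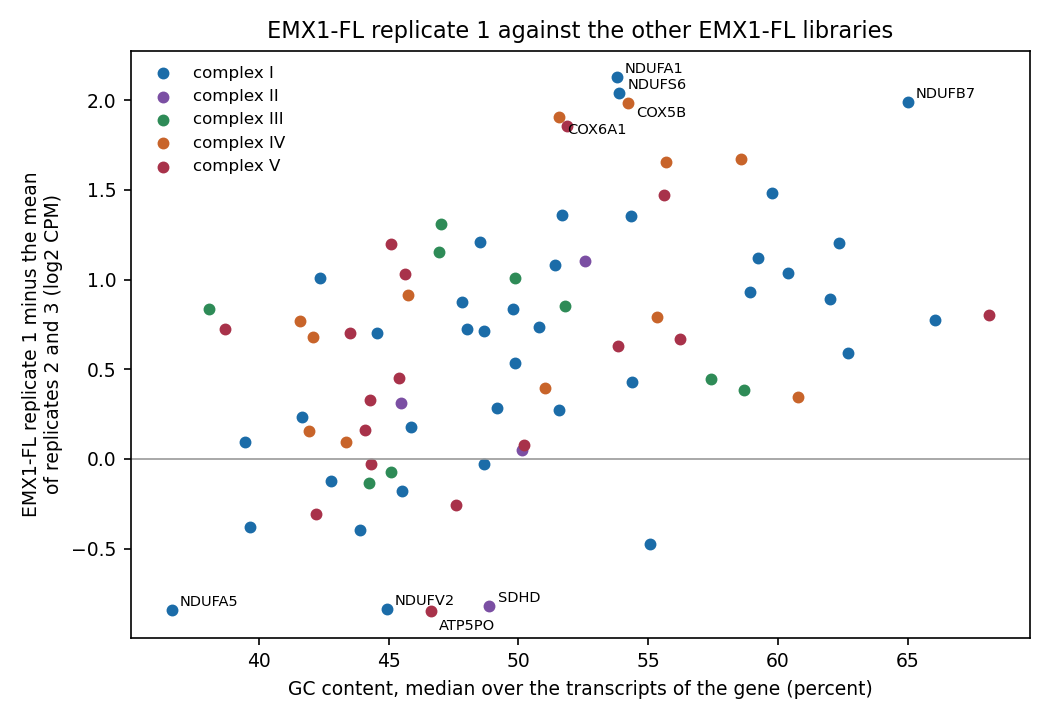
Difference of EMX1-FL replicate 1 from the mean of replicates 2 and 3 (log2 CPM) against GC content (percent) for the 79 tested members, by complex. Members above the median GC content have a median difference of 0.87 and those below it 0.23.

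The split was not limited to that library. On the first principal component of log2 CPM over all genes tested, which held 39.6% of the variance, 5 libraries (replicates 1 and 2 of the vector control, replicates 2 and 3 of EMX1-FL and replicate 1 of EMX1-X1) lay on one side and 4 (replicate 3 of the vector control, replicate 1 of EMX1-FL and replicates 2 and 3 of EMX1-X1) on the other. Every group had libraries on both sides. The median member was 0.28 higher on the side of the 4 libraries, where the median of all genes was 0.01, with 1.21 for NDUFB7, 1.20 for COX6A1, 1.11 for COX8A and 1.09 for COX5B at the top and -0.64 for NDUFA5 at the bottom. By complex the medians were 0.33 for I, 0.13 for II, 0.24 for III, 0.30 for IV and 0.20 for V. These sides were read from the data and are not groups of the study, so no test was made between them.

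Within the sides the comparisons of the study changed direction. Among the 5 libraries the median member was -0.07 for EMX1-FL against the vector control, 0.09 for EMX1-X1 against the vector control and -0.12 for EMX1-FL against EMX1-X1. EMX1-X1 has 1 library there. Among the 4 libraries these were 0.26, -0.16 and 0.38, where EMX1-FL and the vector control have 1 library each, so the change of direction rests on single libraries. For complex IV, EMX1-FL against the vector control was -0.23 on the first side and 0.54 on the other. For complex V, EMX1-X1 against the vector control was 0.03 on the first side and -0.44 on the other.

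The counts of called members rested on single libraries. Without EMX1-FL replicate 1, 5 members were higher and 24 (30.4%) lower in EMX1-FL than in EMX1-X1 at an unadjusted p under 0.05 in edgeR, where 16.1% and 18.6% of all genes were. The lower members were 12 of complex I, 1 of II, 1 of III, 6 of IV and 4 of V. By adjusted p 7 passed, against 6.05% of all genes: COX6A1 (-1.85 ± 0.32, SE), NDUFB7 (-1.28 ± 0.28), COX8A (-1.16 ± 0.29), COX5B (-1.03 ± 0.23), ATP5MF (-0.92 ± 0.21) and COX6B1 (-0.88 ± 0.21) were lower, and NDUFC2 (1.11 ± 0.27) was higher, with adjusted p-values from 0.0457 to 0.0461. With all 9 libraries there were 6 higher and 0 lower. Within the side of the 5 libraries, where 2 EMX1-FL libraries meet 1 EMX1-X1 library, the difference was smaller for each of the 7: -0.85 for COX6A1, -0.68 for NDUFB7, -0.65 for COX6B1, -0.55 for COX5B, -0.52 for ATP5MF, -0.34 for COX8A and 0.65 for NDUFC2. Against the vector control, leaving it out gave 3 higher and 17 lower members (21.5%, where 8.01% of all genes were lower), with COX6A1 past the DEG threshold, and the complex I median turned from 0.19 to -0.15. The number of members with an unadjusted p under 0.05 in that comparison (2, where 5.80% of all genes were) also became 0 without vector control replicate 1 (4.23% of all genes), 7 without vector control replicate 3 (4.55%), 4 without EMX1-FL replicate 2 (5.19%) and 8 without EMX1-FL replicate 3 (4.95%). For EMX1-X1 against the vector control (0 members, 8.11% of all genes) it was 1 without vector control replicate 1 (5.16%), 6 without EMX1-FL replicate 1 (14.6%) and 6 without EMX1-X1 replicate 1 (17.1%). For the isoforms (6 members, 7.63% of all genes) it was 13 without EMX1-FL replicate 3 (4.94%), 22 without EMX1-X1 replicate 1 (20.1%), 1 without EMX1-X1 replicate 2 (2.12%) and 2 without EMX1-X1 replicate 3 (2.03%).

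With the side as a covariate, 15 members were higher and 3 lower in EMX1-FL than in EMX1-X1 (19.0% and 3.80%, where 5.58% and 7.28% of all genes were), and 11 were higher and 4 lower than in the vector control (13.9% and 5.06%, where 8.72% and 6.34% of all genes were). EMX1-X1 then had 0 higher and 4 lower members than the vector control (5.06% lower, where 4.81% of all genes were). The side was read from the same counts that were tested, so the p-values of this fit may be too small. NDUFC2 was again the only member past the DEG threshold, in EMX1-FL against EMX1-X1, and 0 members had an adjusted p under 0.05 in any comparison. The lower members were COX6A1, COX5A, NDUFS7 and UQCR10 for EMX1-FL against the vector control, NDUFA10, NDUFC2, NDUFB10 and ATP5PD for EMX1-X1 against it, and COX6A1, COX5A and NDUFS7 between the isoforms.

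Other genes of the pathway were taken from lists. Of 48 assembly factors, which build the complexes without staying in them, 47 were tested with a median of 0.07 (log2) for EMX1-FL over the control, -0.07 for EMX1-X1 over the control and 0.16 between the isoforms. At an unadjusted p under 0.05 in edgeR, NDUFAF8 was higher in EMX1-FL (0.59 ± 0.27, SE) and SDHAF1 higher in EMX1-X1 (0.82 ± 0.31). SDHAF3 (0.49 ± 0.20) and LYRM7 (0.59 ± 0.27), a factor of complex III assembly, were higher in EMX1-FL than in EMX1-X1. None was lower. Of all genes, 3.97%, 5.95% and 2.98% were called higher in these comparisons. Of 20 other electron transport and ATP synthase proteins that the symbol rule leaves out, such as CYC1 and CYCS, 0 passed in EMX1-FL, ETFDH was lower in EMX1-X1 (-0.46 ± 0.21) and HIGD2A lower in EMX1-FL than in EMX1-X1 (-0.84 ± 0.32). Of all genes, 2.16% were called lower in EMX1-X1 and 4.66% lower in EMX1-FL than in EMX1-X1. No gene of these lists had an adjusted p under 0.05.

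Of 17 regulators, PPARGC1A, the coactivator known for mitochondrial biogenesis, was higher in EMX1-FL (1.16 ± 0.48, SE; adjusted p = 0.803, edgeR) at a low level, and past the DEG threshold, with group means of 0.69 CPM (control), 1.54 CPM (EMX1-FL) and 1.35 CPM (EMX1-X1). POLRMT, the mitochondrial RNA polymerase, was higher in EMX1-X1 (0.58 ± 0.26; adjusted p = 0.610, edgeR), and MTERF1 was higher in EMX1-FL than in EMX1-X1 (0.65 ± 0.24; adjusted p = 0.611, edgeR). PPARGC1A, POLRMT and MTERF1 were each the only regulator called in their comparison, where 3.97%, 5.95% and 2.98% of all genes were called higher. The DEG threshold was passed by 2.42% of all genes in EMX1-FL against the vector control. NRF1 (-0.21 ± 0.16), GABPA (0.34 ± 0.36), YY1 (-0.13 ± 0.17), ESRRA (0.35 ± 0.34) and TFAM (0.16 ± 0.24) did not pass in EMX1-FL, nor did they in EMX1-X1. All 13 mitochondrially encoded subunits were tested: 6 were lower (1.83% of all genes) and 1 higher (3.97%) in EMX1-FL than in the vector control at an unadjusted p under 0.05. In EMX1-X1 9 were lower (2.16% of all genes), and between the isoforms MT-ND4L and MT-ATP8 were higher in EMX1-FL (2.98% of all genes), none at an adjusted p under 0.05. The median log2 fold changes of these 13 were -0.47, -0.65 and 0.22, where those of the nuclear members were 0.07, 0.01 and 0.04.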

How the data were processed

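RNA-seq libraries of SNU-398 were analysed, 9 in 3 groups taken from the sample labels. The authors deposited counts of read pairs per gene name, not normalized. The header of that table names featureCounts 2.0.1, the submitters' processing notes name featureCounts 2.0.6, STAR, fastp and bcl2fastq 2.1.7, and the study's methods name RSEM. The annotation was Ensembl release 99 of GRCh38, counted without strand, so an overlapping or antisense gene cannot always be told apart. The authors also deposited log2(TPM + 1) values on a log2 scale. These were recomputed from the counts and listed lengths (largest difference 5e-06), and TPM were taken from them.

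Of 60642 names, 18574 passed filterByExpr. The quasi-likelihood F test of edgeR 4.0.16 (R 4.3.3) was run on the counts with TMM factors, all 9 libraries and group as the only term, and its p-values were adjusted by Benjamini-Hochberg across the genes that passed. The fold and DEG threshold are those of the study. CPM use TMM library sizes, and log2 CPM a prior count of 2. GC content is the median over GENCODE release 29 transcripts. Members and lists were chosen with earlier results of these data known. Members were named by rule: all in the account of levels, the 3 smallest p in each direction, those past a threshold or the filter, alternative forms and central subunits. A few values are not reported here. Members named for their spread between libraries were chosen after their values were seen.

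Alternatives were RLE, upper-quartile or no factors, DESeq2 1.42.0, limma 3.58.1 on TPM in log2 with a pseudocount of 1 or 0.1, other filters (any count, or 10 counts in every library), a fit of the 6 libraries of a comparison alone, a block for the replicate number, the side of the first principal component as a covariate, and each library left out. A GC offset (loess span 0.3), alone and with the block or the side, was added after the data were seen. The edgeR fit alone was tested on simulated counts, drawn independently for each gene and library. That simulation lacked the shared differences between libraries seen here, so it cannot say how the fit handles them. Precision is limited by total counts of 21562703 to 25197970 per library and by the spread between the 3 libraries of a group.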

Additional observations from a re-analysis of the deposited data

How the results depend on the processing

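No member called with all 9 libraries changed sign under any alternative run. When each library was left out in turn, the medians for EMX1-FL against the vector control ran from -0.15 to 0.23 for complex I, which alone moved by more than the replicate spread, -0.16 to 0.08 for III, -0.21 to 0.24 for IV and -0.08 to 0.13 for V. Between the isoforms they ran from -0.12 to 0.21 for complex I, -0.14 to 0.07 for III and -0.38 to 0.09 for IV, and in EMX1-X1 those of complexes I to IV also lay on both sides of 0. The counts of members moved. At an unadjusted p under 0.05, EMX1-FL against the vector control had 2 members (5.80% of all genes), and 8 with limma on either TPM pseudocount (6.29% and 6.26% of all genes), 9 without the filter (4.63%), 15 with the side of the first principal component (15.1%), 8 with the GC offset (12.9%) and 16 with the GC offset and the side (17.1%). EMX1-X1 against the vector control had 0 (8.11%), and 6 without the filter (7.34%), 4 in the fit of 6 libraries (13.2%), 4 with the side (12.6%), 4 with the GC offset (11.8%), 2 with the GC offset and the block (9.89%), and 9 with the GC offset and the side (14.7%). EMX1-FL against EMX1-X1 had 6 (7.63%), and 10 with limma on log2(TPM + 1) (7.69%), 15 without the filter (7.49%), 18 with the side (12.9%) and 19 with the GC offset and the side (10.7%). With the GC offset it again had 6 (9.16%), of which UQCRQ and NDUFC2 were among the first 6, NDUFS3 and NDUFA13 were higher and COX6A1 and COX5A lower. By adjusted p it had 0, and 2 (NDUFC2 and COX6A1) without the filter. Leaving out each library gave 0 to 20, 0 to 6 and 1 to 29 members in the 3 comparisons, 0 to 1, 0 to 0 and 0 to 7 past the DEG threshold, and 0 to 7 by adjusted p in EMX1-FL against EMX1-X1. The cause of these shifts was not tested.

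With the replicate number as a block, 1, 0 and 4 members had an unadjusted p under 0.05, where 3.87%, 5.23% and 4.04% of all genes did. In that fit the calls of NDUFB3 against the vector control and of UQCRQ and ATP5MD between the isoforms ended. Deviations from the group mean had correlations from -0.52 to 0.29 (mean -0.13) between libraries with the same number. The numbers were therefore not taken to pair the libraries. Other pairs of libraries had a mean of 0.06, which is no independent reference, since the deviations within a group sum to 0. NDUFA7 and UQCRHL had few reads, which limits what can be seen of them.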
